A study of Mus musculus with 6 samples.

Results

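Synaptic adhesion molecules are the surface proteins with which the sending and the receiving side of a synapse find and hold each other. The 49 genes described here belong to 14 families: neurexins, neuroligins, LRRTMs, Lrfn (SALM) proteins, Slitrks, LAR phosphatases, latrophilins, FLRTs, teneurins, SynCAMs, contactins, contactin-associated proteins, the L1 family and N-cadherin. They were chosen by gene symbol, and all 49 were matched to 1 Ensembl identifier each among the 56941 identifiers counted. All 49 passed the filter on low counts, among 19354 genes that did. They were measured by poly(A) RNA sequencing of the ventral hippocampus of 6 mice, 3 with the genotype label NEGR1_overexpression and 3 labelled NEGR1_control. NEGR1 is itself an adhesion molecule of neurons, of the IgLON family, and the study asked what part it plays in impaired working memory and in behaviour of the anxiety and depression kind. The strain, sex and age of the mice, how NEGR1 was raised and what the control mice received are not stated in the labels. Values are CPM, read counts scaled to library size with TMM factors, given as mean ± SD (n = 3 libraries per group) with overexpression first. Library values are listed for replicates 1, 2 and 3 in that order, and every fold is overexpression over control.

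The libraries held 30726110 to 38108394 counts. Negr1, the targeted gene, had 185, 199 and 195 CPM in overexpression and 181, 168 and 179.9 CPM in control libraries. The 3 overexpression libraries were above the controls, 1.09-fold (95% interval 1.01 to 1.19) on the means, and the gene did not pass the test (edgeR's quasi-likelihood test with Benjamini-Hochberg adjustment, adjusted p = 0.488). Every comparison below follows the labels. Defining markers of the labelled tissue were present in every library. The summed level of 6 excitatory neuron markers was 5401 to 6262 CPM, and Prox1 of the dentate gyrus stood at 68.2 to 137 CPM. Overexpression replicate 1 stood apart in 6 choroid plexus markers, which summed to 725 CPM there and to 23.4 to 67.9 CPM in the other 5 libraries. In pieces of tissue, fewer cells of a type and less RNA per cell cannot be told apart.

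Neurexins and the LAR-type phosphatases sit mainly on the presynaptic side, and each binds a set of postsynaptic proteins: neuroligins and LRRTMs for the neurexins, and Slitrks and some Lrfn proteins for the phosphatases. Latrophilins, adhesion receptors coupled to G proteins, bind teneurins and FLRTs. Contactins, contactin-associated proteins and the L1 family serve axons more broadly, including the node of Ranvier and the paranodes beside it, where the axon is held to its myelin sheath.

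Per kilobase of exon, the most abundant members were Cadm3 at 62.8, Cadm4 at 61.98, Adgrl1 at 54.3 and Cntn1 at 52.4 CPM per kb, as means of all 6 libraries. The least abundant were Cntn5 at 1.35 and Cntn6 at 1.34 CPM per kb. Ranges over the 6 libraries overlapped for Cadm3 and Cadm4 (58.7 to 69.2 and 55.5 to 66.4 CPM per kb), for Adgrl1 and Cntn1 (53.5 to 55.8 and 49.1 to 55.2), and for Cntn5 and Cntn6, so the order within these pairs is not set. Some families had 1 leading gene. Adgrl1 held 83.4 ± 0.334% of the latrophilin level per kb in control libraries, Nlgn2 74.6 ± 1.51% of the neuroligins, Cntnap1 71.4 ± 0.337% of the contactin-associated proteins, Ptprs 68.6 ± 0.639% of the LAR phosphatases, Cntn1 67.5 ± 1.21% of the contactins and Lrrtm1 61.2 ± 0.870% of the LRRTMs. Other families were spread more evenly. Cadm3 held 37.6% and Cadm4 36.8% of the SynCAM level in control libraries, and the Lrfn genes ran from 15.8% for Lrfn5 to 28.7% for Lrfn1. These lengths are the union of all annotated exons, so a gene with long rarely used exons reads low on this scale.

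**Figure D1:**
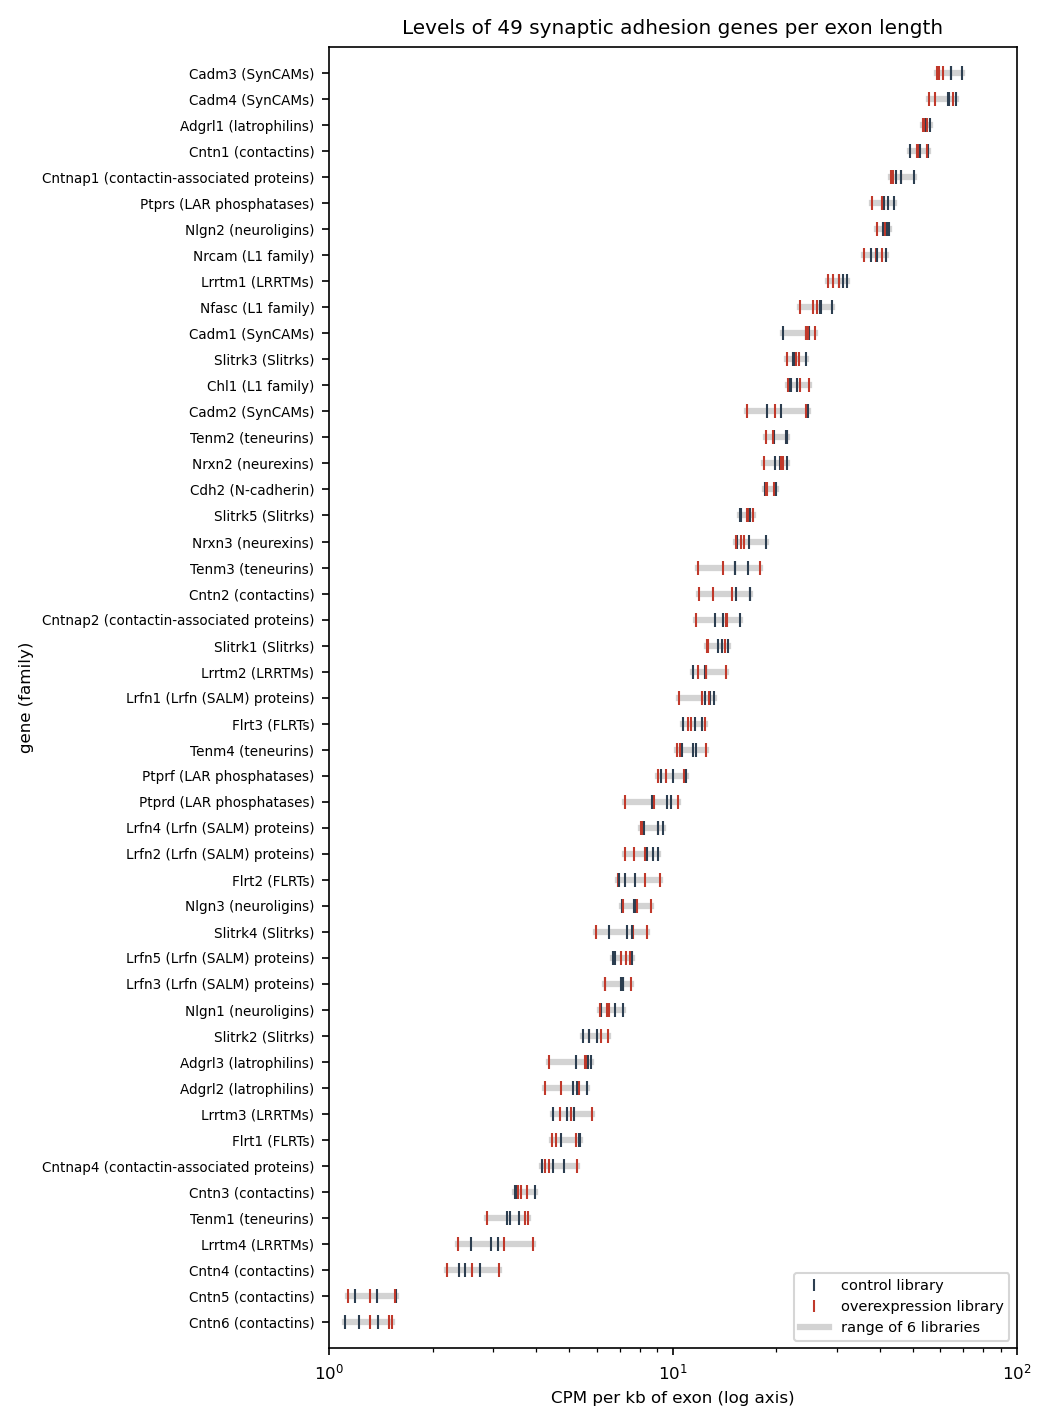
Level of each gene in CPM per kb of exon (log axis), 1 tick per library, ordered by the mean of 6 libraries, with a grey bar over their range. Levels run from 1.34 for Cntn6 to 62.8 for Cadm3, and control and overexpression ticks interleave for most genes.

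No member of the 14 families passed an adjusted p of 0.05 in the comparison of overexpression with control (0 of 49 by edgeR's quasi-likelihood test, where 0.0465% of all genes tested passed). At an unadjusted p under 0.05 there were 5 members of 49 (10.2%), all lower in overexpression: Cntn2, Cadm3, Nfasc, Lrfn2 and Adgrl2. Over all genes tested this share was 9.24%, with 4.60% lower and 4.64% higher, so the share of members was close to the background. Without overexpression replicate 1 the count was 12 of 49 members (24.5%), 11 of them lower, against 11.96% of all genes in that fit. It was 3 of 49 (6.12%) without control replicate 2, without control replicate 3 and with DESeq2, against 7.59%, 6.41% and 7.31% of all genes in those fits. Groups did not overlap for 6 members (12.2%), all of them with every overexpression library below every control library, against 15.1% of all genes, 8.07% all below and 7.07% all above. The fold was below 1 for 32 of the 49 members (65.3%, against 49.6% of all genes, of which 50.4% were above 1), and the median log2 fold change was -0.041, beside 0.0015 over all genes. DESeq2's Wald test called 1 member, Cntn2, and limma-voom called 0. Over all genes, DESeq2 called 108 of 19348 and limma-voom 6 of 19354.

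Counts were high for these genes, and the lowest count of any member in any library was 185, for Cntn5. The fold ran from 0.818 for Cntn2 to 1.17 for Cntn6. For 39 members the 95% interval of the fold lay within 1.25-fold in either direction, and for all 49 it lay within 1.5-fold. The widest intervals belonged to Cadm2, at 0.688 to 1.30, and Lrrtm4, at 0.841 to 1.44. Each interval stands for 1 gene and is not widened for the number of genes.

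**Figure D2:**
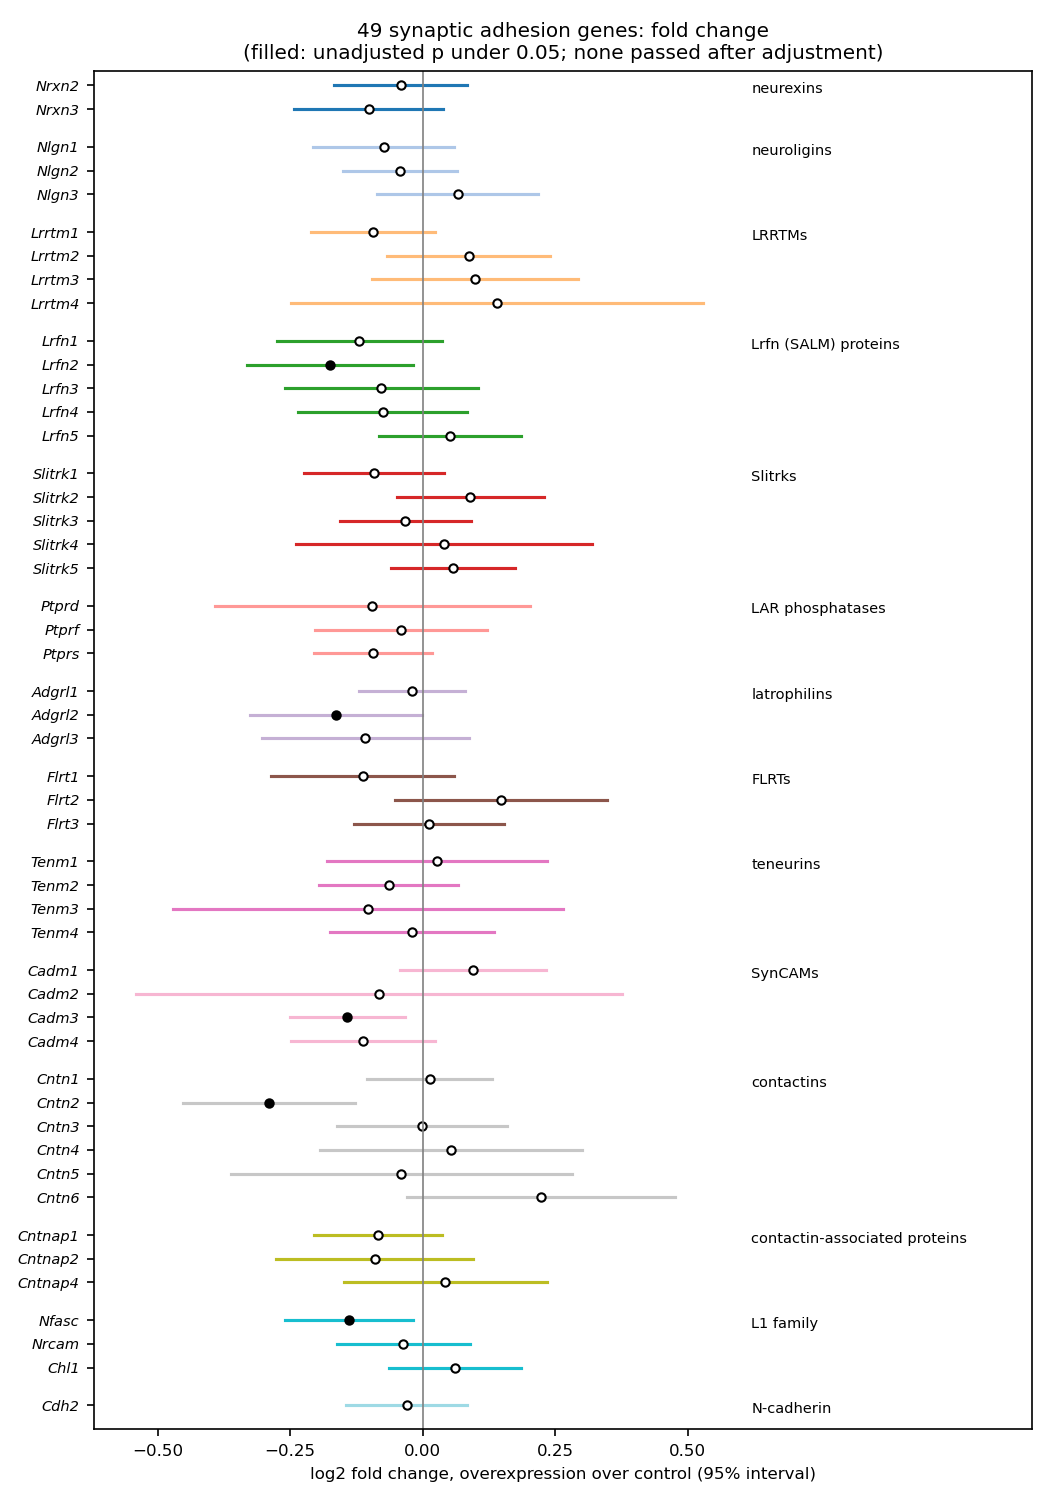
Log2 fold change of each gene, overexpression over control, with its 95% interval (horizontal bar), grouped by family, and filled points for an unadjusted p under 0.05. The 5 filled points, Lrfn2, Adgrl2, Cadm3, Cntn2 and Nfasc, all lie to the left of 0, and Cntn2 lies farthest, at -0.29.

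The neurexins are presynaptic receptors whose many splice forms decide which ligand they take, and counts per gene do not separate those forms. Nrxn3 stood at 198, 193 and 203 CPM in overexpression and 194, 235 and 209 CPM in control libraries. Control replicate 2 was the highest and the groups overlapped, with a fold of 0.932 (95% interval 0.845 to 1.03) and an edgeR adjusted p of 0.671. Nrxn2 was at 276 ± 18.7 against 284 ± 11.6 CPM, with an adjusted p of 0.872.

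Neuroligins are the classical postsynaptic partners of neurexins, with Nlgn1 at excitatory synapses, Nlgn2 at inhibitory ones and Nlgn3 at both. Nlgn1 had 86.4, 82.4 and 87.6 CPM in overexpression and 83.1, 95.8 and 91.0 CPM in control libraries. The groups overlapped and the fold was 0.950 (95% interval 0.866 to 1.04), with an edgeR adjusted p of 0.753. Nlgn2 was at 234 ± 6.87 against 242 ± 5.33 CPM and Nlgn3 at 73.1 ± 6.91 against 69.8 ± 3.40 CPM. The share of Nlgn2 in the neuroligin level per kb was 74.0 ± 1.07% in overexpression, within the spread of the control value above.

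The LRRTMs, leucine-rich repeat proteins of excitatory synapses that also bind neurexins, had 1 member whose groups were separate. Lrrtm1 stood at 85.6, 88.5 and 92.3 CPM in overexpression and 95.02, 97.0 and 92.5 CPM in control libraries. All 3 overexpression libraries were below the controls, but the nearest pair, overexpression replicate 3 and control replicate 3, was almost level, and the fold was 0.937 (95% interval 0.863 to 1.02) with an edgeR adjusted p of 0.629. The other 3 members, Lrrtm2, Lrrtm3 and Lrrtm4, had folds of 1.06, 1.07 and 1.10. As a share of the LRRTM level per kb, Lrrtm1 was at 58.0 ± 0.545% in overexpression, below the 61.2 ± 0.870% of control libraries, without overlap of the libraries. Of 48 such shares over the 13 families with more than 1 gene, 7 did not overlap. Among all single genes tested the groups did not overlap for 15.1%, and 7 of 48 is not above that. Of the 7, 3 were lower in overexpression (Lrrtm1, Cntn2 and Nfasc) and 4 higher (Lrrtm2, Slitrk2, Cadm1 and Chl1). Shares within a family sum to a whole, so they do not vary freely. With 3 libraries against 3, an exact permutation test of such a share cannot give a p below 0.1.

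Of the 5 Lrfn genes, which encode postsynaptic proteins also called SALMs, 4 had a fold below 1, and the median log2 fold change was -0.078 (-0.14 to -0.037 when each library was left out in turn). Lrfn2, or SALM1, which binds the scaffold PSD-95 and NMDA receptors, had 26.5, 24.6 and 23.2 CPM in overexpression and 29.1, 28.0 and 26.9 CPM in control libraries. Every overexpression library was below every control library, by a narrow margin between overexpression replicate 1 and control replicate 3. Lrfn2 was at 24.8 ± 1.64 against 28.0 ± 1.09 CPM, 0.885-fold (95% interval 0.794 to 0.987), and did not pass (edgeR adjusted p = 0.488). Lrfn1, Lrfn3, Lrfn4 and Lrfn5 had overlapping groups and folds of 0.920, 0.947, 0.949 and 1.04.

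The Slitrks, postsynaptic ligands of the LAR phosphatases, showed no separation of the groups in any of 5 genes. Slitrk1 had the smallest p of them, with 67.9, 75.8 and 67.1 CPM in overexpression and 72.7, 77.3 and 74.6 CPM in control libraries. Overexpression replicate 2 lay among the controls, and the fold was 0.938 (95% interval 0.856 to 1.03) with an edgeR adjusted p of 0.688. Slitrk3, which acts at inhibitory synapses, was the most abundant per kb and was at 109 ± 4.32 against 112 ± 5.55 CPM. Slitrk2, Slitrk4 and Slitrk5 had folds of 1.06, 1.03 and 1.04, and the family median of 0.040 took the other sign without overexpression replicate 3, without control replicate 1 or after correction for GC content.

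On the side of the receptors, Ptprs, a LAR-type phosphatase that also binds proteoglycans of the synaptic cleft, had 615, 609 and 567 CPM in overexpression and 635, 617 and 660.4 CPM in control libraries. The overexpression libraries were all below the controls, with replicate 1 of overexpression and replicate 2 of control nearly level. The fold was 0.937 (95% interval 0.867 to 1.01) and the edgeR adjusted p 0.612. Ptprd and Ptprf overlapped between groups, at 201 ± 35.2 against 214 ± 14.1 CPM and 89.4 ± 8.13 against 92.0 ± 7.55 CPM. The median of the 3 phosphatases was -0.094, and -0.024 without overexpression replicate 2.

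Among the latrophilins, Adgrl2 had 75.5, 60.4 and 66.9 CPM in overexpression and 74.9, 72.7 and 79.7 CPM in control libraries. Overexpression replicate 1 lay among the controls and the other two below them. Adgrl2 was at 67.6 ± 7.55 against 75.8 ± 3.59 CPM, 0.893-fold (95% interval 0.797 to 0.999), with an edgeR adjusted p of 0.539. The predominant latrophilin, Adgrl1, was the most tightly measured of all members, at 463 ± 5.97 against 470.0 ± 7.94 CPM and a log2 fold change of -0.020 ± 0.0468 (SE). Adgrl3 was at 91.6 ± 12.3 against 98.8 ± 5.09 CPM. The median of the 3 was -0.11, and -0.015 without overexpression replicate 2.

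The ligands of the latrophilins gave no common direction. Flrt2 had 64.0, 53.3 and 70.6 CPM in overexpression and 56.0, 59.97 and 53.6 CPM in control libraries. Its overexpression libraries lay on both sides of the controls, and the fold of 1.11 (95% interval 0.964 to 1.27) did not pass (edgeR adjusted p = 0.664). Flrt1 and Flrt3 had folds of 0.924 and 1.01. Among the teneurins, large proteins that reach across the synapse to latrophilins, Tenm2 had the smallest p, with 247, 224 and 214 CPM in overexpression and 244, 225 and 246 CPM in control libraries. The groups overlapped, with a fold of 0.956 (95% interval 0.873 to 1.05) and an edgeR adjusted p of 0.785. Tenm1, Tenm3 and Tenm4 had folds of 1.02, 0.931 and 0.986, and the teneurin median of -0.042 became 0.021 without overexpression replicate 2.

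SynCAMs are immunoglobulin proteins that bind each other across the synapse, and Cadm3 on axons is also known as a partner of Cadm4 on myelinating glia. Cadm3 had 430.4, 426 and 442 CPM in overexpression and 466, 502 and 466 CPM in control libraries. The highest overexpression library stayed below the lowest control, and overexpression libraries were close to each other. The level of Cadm3 was 433 ± 8.63 against 478 ± 20.6 CPM, 0.906-fold (95% interval 0.840 to 0.977), with an unadjusted p of 0.0136 and an edgeR adjusted p of 0.423. Cadm4 was at 129 ± 11.0 against 139 ± 3.76 CPM, with overexpression replicate 1 among the controls (edgeR adjusted p = 0.618). Cadm1 was at 260.5 ± 8.51 against 244 ± 22.1 CPM, and Cadm2, with the largest standard error of all members, at 198 ± 39.5 against 209.9 ± 29.6 CPM.

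Contactins are immunoglobulin proteins anchored by a lipid, and Cntn2 (also TAG-1; ENSMUSG00000053024), made by neurons and by oligodendrocytes, joins axon and myelin beside the paranode together with Cntnap2. Cntn2 had the smallest p of all 49 members. It stood at 138, 111 and 122 CPM in overexpression and 142, 156 and 155 CPM in control libraries. All 3 overexpression libraries lay below the controls, with overexpression replicate 1 close to control replicate 1. Cntn2 was at 124 ± 13.9 against 151 ± 7.71 CPM, 0.818-fold (95% interval 0.731 to 0.915), or -0.29 ± 0.0750 (SE) on the log2 scale. In edgeR's test the unadjusted p was 0.00199 and the adjusted p 0.269, which did not pass, and the adjusted p ranged from 0.00103 to 0.640 over 16 alternatives, of which 3 passed. These were DESeq2 (adjusted p = 0.0467), edgeR with no filter on low counts (adjusted p = 0.00103) and edgeR without overexpression replicate 1 (adjusted p = 0.0258, log2 fold change -0.38). Over all genes these fits called more as well, 108, 304 and 63 genes, against 9 in the main fit.

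The other 5 contactins had overlapping groups. Cntn1, the contactin of the paranodal junction, was at 496 ± 17.3 against 492 ± 28.8 CPM, with a fold of 1.01 (95% interval 0.930 to 1.09). Cntn6, a contactin also known as NB-3, had the largest fold of all members, 1.17-fold (95% interval 0.980 to 1.39), from 9.40 ± 0.729 against 8.06 ± 0.918 CPM, with overlapping groups and an edgeR adjusted p of 0.596. Cntn3, Cntn4 and Cntn5 had folds of 0.999, 1.04 and 0.972. Cntn2 made up 17.7 ± 1.48% of the contactin level per kb in overexpression and 21.0 ± 0.347% in control libraries, without overlap, as for 7 of the 48 shares.

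Of the contactin-associated proteins, Cntnap1 (Caspr) is the paranodal partner of Cntn1 and had 270.3, 257 and 253 CPM in overexpression and 261, 294 and 271 CPM in control libraries. The groups overlapped, with a fold of 0.943 (95% interval 0.867 to 1.03) and an edgeR adjusted p of 0.681. Cntnap2 (Caspr2), the partner of Cntn2, was at 138 ± 15.3 against 146 ± 12.4 CPM, and Cntnap4, which acts in interneurons, at 29.0 ± 3.51 against 28.2 ± 2.12 CPM.

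In the L1 family, Nfasc encodes neurofascin, whose neuronal and glial forms hold nodes and paranodes together and are counted as 1 gene here. Nfasc (ENSMUSG00000026442) had 370.2, 331 and 361 CPM in overexpression and 382, 379 and 409 CPM in control libraries. All overexpression libraries were below the controls, with replicate 2 the lowest. Its level was 354 ± 20.5 against 390.0 ± 16.8 CPM, 0.908-fold (95% interval 0.835 to 0.988), with an unadjusted p of 0.0278 and an edgeR adjusted p of 0.482. Nrcam, a nodal relative, was at 515 ± 32.6 against 528 ± 27.03 CPM and Chl1 at 286 ± 20.4 against 274 ± 6.93 CPM. N-cadherin, encoded by Cdh2, had 152, 151 and 158 CPM in overexpression and 149.6, 161 and 160.0 CPM in control libraries. The groups overlapped for Cdh2 as well, with a fold of 0.979 (95% interval 0.905 to 1.06) and an edgeR adjusted p of 0.903.

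**Figure D3:**
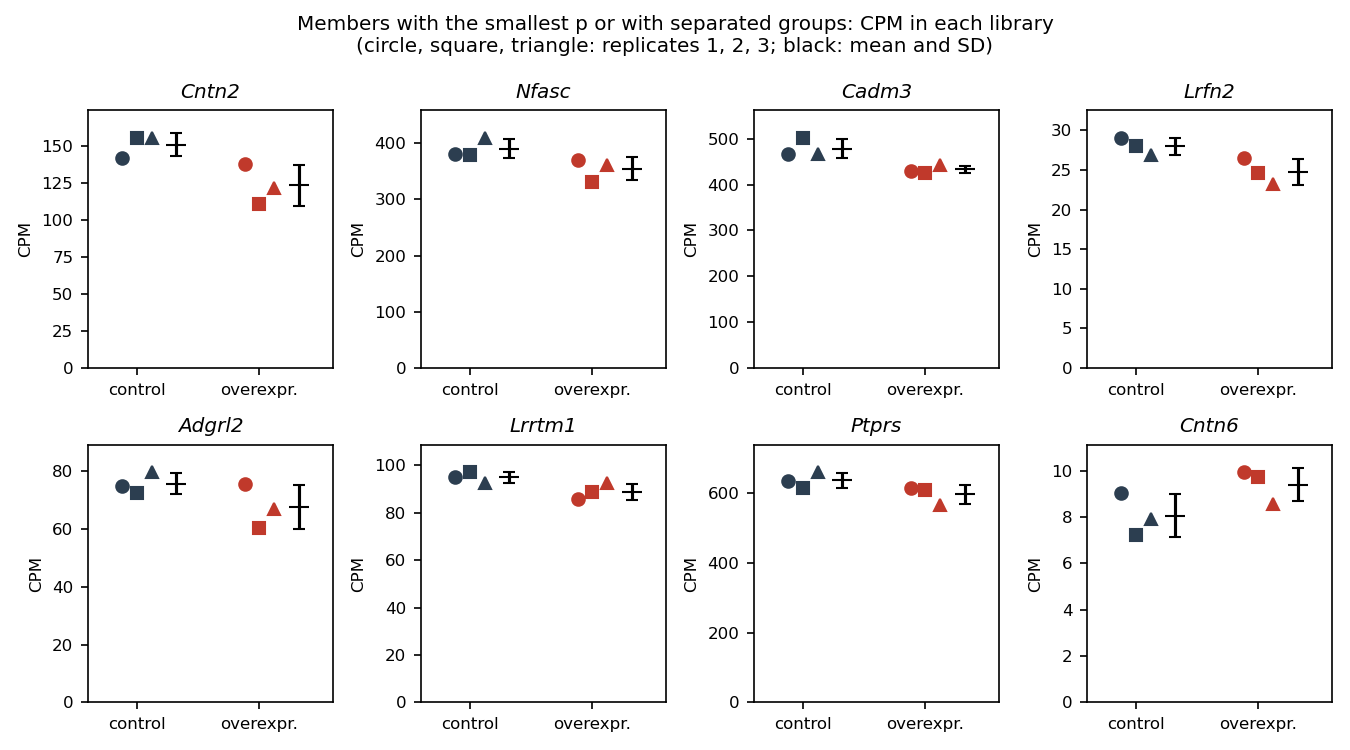
CPM of 8 genes in each library (symbols for replicates 1, 2 and 3; black bars for mean and SD): the 5 with an unadjusted p under 0.05, Lrrtm1 and Ptprs, and Cntn6 with the largest fold. In Cntn2, Nfasc, Cadm3, Lrfn2, Lrrtm1 and Ptprs the 3 overexpression libraries sit below the 3 control libraries, while in Adgrl2 and Cntn6 they overlap.

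Cntn2 and Nfasc are also neighbours in the genome. In RefSeq's mouse gene table (assembly GRCm38.p6) no protein-coding gene and 1 other gene lie between them on chromosome 1, and Cadm3 lies on the same chromosome farther along. Contactin genes sit next to each other elsewhere too: Cntn3, Chl1, Cntn6 and Cntn4 follow one another on chromosome 6 with no protein-coding gene between, and their folds were 0.999, 1.04, 1.17 and 1.04. The promoter windows of the 3 members with the smallest p are shown to let these genes be compared at their start sites, 250 bases before to 50 after each RefSeq start in GRCm38.p6, all on the minus strand, 5′ to 3′, with CG dinucleotides in capitals.
Cntn2, chr1:132542891-132543190: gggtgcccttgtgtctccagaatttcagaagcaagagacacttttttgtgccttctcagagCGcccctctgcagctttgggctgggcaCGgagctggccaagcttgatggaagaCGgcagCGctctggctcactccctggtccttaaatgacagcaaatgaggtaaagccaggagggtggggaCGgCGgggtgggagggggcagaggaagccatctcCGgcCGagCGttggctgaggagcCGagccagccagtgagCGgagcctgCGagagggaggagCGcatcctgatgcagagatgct
Nfasc, upstream start, chr1:132707277-132707576: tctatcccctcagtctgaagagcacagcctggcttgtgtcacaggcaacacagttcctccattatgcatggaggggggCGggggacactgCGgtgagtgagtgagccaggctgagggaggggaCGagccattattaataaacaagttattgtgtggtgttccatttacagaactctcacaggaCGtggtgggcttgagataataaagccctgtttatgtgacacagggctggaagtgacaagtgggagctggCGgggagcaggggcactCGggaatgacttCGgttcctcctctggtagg
Nfasc, downstream start, chr1:132642809-132643108: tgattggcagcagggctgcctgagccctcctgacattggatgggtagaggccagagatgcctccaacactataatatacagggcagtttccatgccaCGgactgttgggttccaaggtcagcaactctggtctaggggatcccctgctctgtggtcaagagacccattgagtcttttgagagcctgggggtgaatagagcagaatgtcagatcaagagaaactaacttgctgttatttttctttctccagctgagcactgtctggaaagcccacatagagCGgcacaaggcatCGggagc
Cadm3, chr1:173367646-173367945: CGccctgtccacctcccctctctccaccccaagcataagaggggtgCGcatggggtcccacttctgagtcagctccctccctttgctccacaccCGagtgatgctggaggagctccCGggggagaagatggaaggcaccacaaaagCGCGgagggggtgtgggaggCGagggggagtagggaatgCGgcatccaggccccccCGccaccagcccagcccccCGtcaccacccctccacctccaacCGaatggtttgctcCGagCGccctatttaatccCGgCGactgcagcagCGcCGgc

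The Cntn2 window held 13 CG dinucleotides, the Nfasc windows 7 and 3, and the Cadm3 window 17, where the median was 7 over all 32851 promoter windows and 12 over the 52 windows of the 37 members found in the table. Some short motifs were searched for on both strands, none of which overlaps another. The letters ACAAAG, a core of SOX sites, were in none of these 4 windows, in 6 of the 52 member windows (11.5%) and in 18.7% of all windows. A second SOX core, ACAATG, was likewise in none of the 4, in 4 of the 52 (7.69%) and in 12.6% of all. The E-box CAGCTG was in the downstream Nfasc window, in 10 of the 52 (19.2%) and in 16.3% of all. The TATA box letters TATAAA were in none of the 4, in 5 of the 52 (9.62%) and in 13.6% of all. A match or its absence describes the letters only.

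Markers of myelin were set beside Cntn2, Nfasc and Cadm3, the 3 members with the smallest p. These 3 were picked from the same values and were all lower, so a direction shared with the markers is no separate result. Of the other members linked to axon and myelin, Cntn1, Cntnap1, Cntnap2, Cadm4 and Nrcam had folds of 1.01, 0.943, 0.939, 0.925 and 0.975. Their groups all overlapped. All 10 oligodendrocyte and myelin markers had a fold below 1, and their median on the log2 scale was -0.38, and 0 of 10 passed. By edgeR's test 8 of the 10 had an unadjusted p under 0.05, all lower, against 9.24% of all genes in either direction. For 5 of the 10 every overexpression library lay below every control library, against 8.07% of all genes. The summed level of all 10 was 3077 to 3631 CPM in overexpression and 3853 to 4856 CPM in control libraries, and no marker was at 0. Mbp, a main protein of myelin, was at 1492 ± 121 against 2029.8 ± 220.3 CPM (edgeR adjusted p = 0.1498) and Mag, an adhesion protein of the inner myelin face, at 90.6 ± 6.82 against 127 ± 18.6 CPM (adjusted p = 0.232). The mean log2 deviation of the 10 markers was -0.11, -0.30 and -0.17 in the overexpression libraries and -0.067, 0.40 and 0.24 in the controls. Overexpression replicate 2 was the lowest and overexpression replicate 1 the highest of its group in these markers, in Cntn2 and in Nfasc, and control replicate 1 was the lowest control in the markers and in Cntn2. Among all 49 members, overexpression replicate 1 was above replicate 2 in 35, so that difference is not particular to Cntn2 and Nfasc. Other orders differed from the markers: Cadm3 was highest of its group in overexpression replicate 3, and Nfasc was the lowest of the controls in control replicate 2, where the markers were highest. The part of myelin content in the values of Cntn2, Nfasc and Cadm3 was not tested.

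The spread within a group was larger in overexpression than in control libraries for 35 of the 49 members, with a median coefficient of variation of 7.34% against 5.12%. No such values over all genes stand beside these, so the larger spread is not shown to be particular to the members. The spread in overexpression was widest, chosen after the values were seen, for Lrrtm4 (24.3%), Tenm3 (21.1%), Cadm2 (19.9%) and Ptprd (17.6%). Cadm2 was highest in overexpression replicate 3, and the other 3 had replicates 1 and 2 at opposite ends. Tenm3, a teneurin that wires subfields of the hippocampus, had 183, 121 and 143 CPM in overexpression and 155, 155 and 169.8 CPM in control libraries, and Ptprd had 236, 166 and 201 CPM in overexpression and 199, 225 and 219.6 CPM in control libraries. Both were highest in overexpression replicate 1 and lowest in replicate 2. Lrrtm4, which is prominent in dentate granule cells, ran the other way, with 14.6, 24.0 and 19.9 CPM in overexpression and 19.1, 18.1 and 15.9 CPM in control libraries.

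Markers of the dentate gyrus differed between the same libraries. The 8 dentate granule cell markers summed to 440.2, 705 and 663 CPM in the overexpression libraries and to 495 to 535 CPM in control libraries, with none at 0. Replicate 1 was the lowest of the 6 libraries and replicate 2 the highest. Over the 49 members, replicate 2 of overexpression held the lowest value for 19 and replicate 3 for 14, and control replicate 2 held the highest for 15. These counts too have no value over all genes beside them. The part of the dentate marker difference in the spread of Tenm3, Ptprd and Lrrtm4 was not tested.

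**Figure D4:**
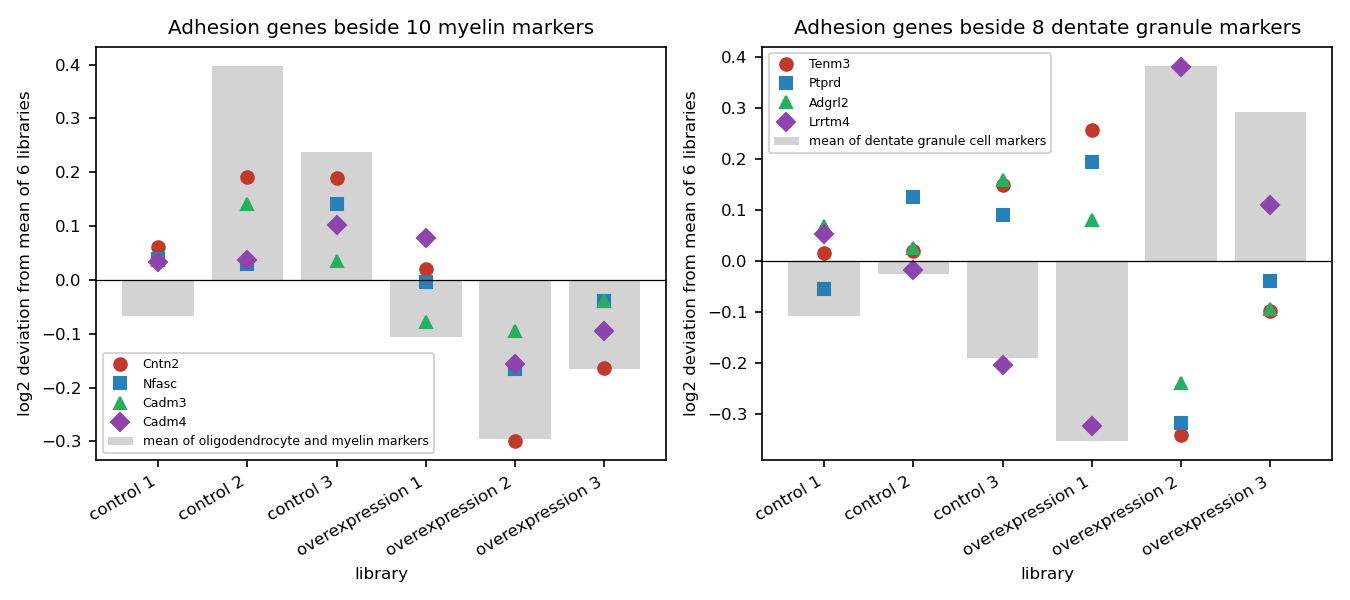
Log2 deviation of each library from the mean of 6 (log2(CPM + 0.5)): grey bars give the mean of 10 myelin markers (left) or 8 dentate granule markers (right), and symbols give 4 adhesion genes each. On the left Cntn2 is lowest in overexpression replicate 2, as the markers are, and on the right Lrrtm4 goes with the bars while Tenm3 and Ptprd go against them in overexpression replicates 1 and 2.

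**Figure D5:**
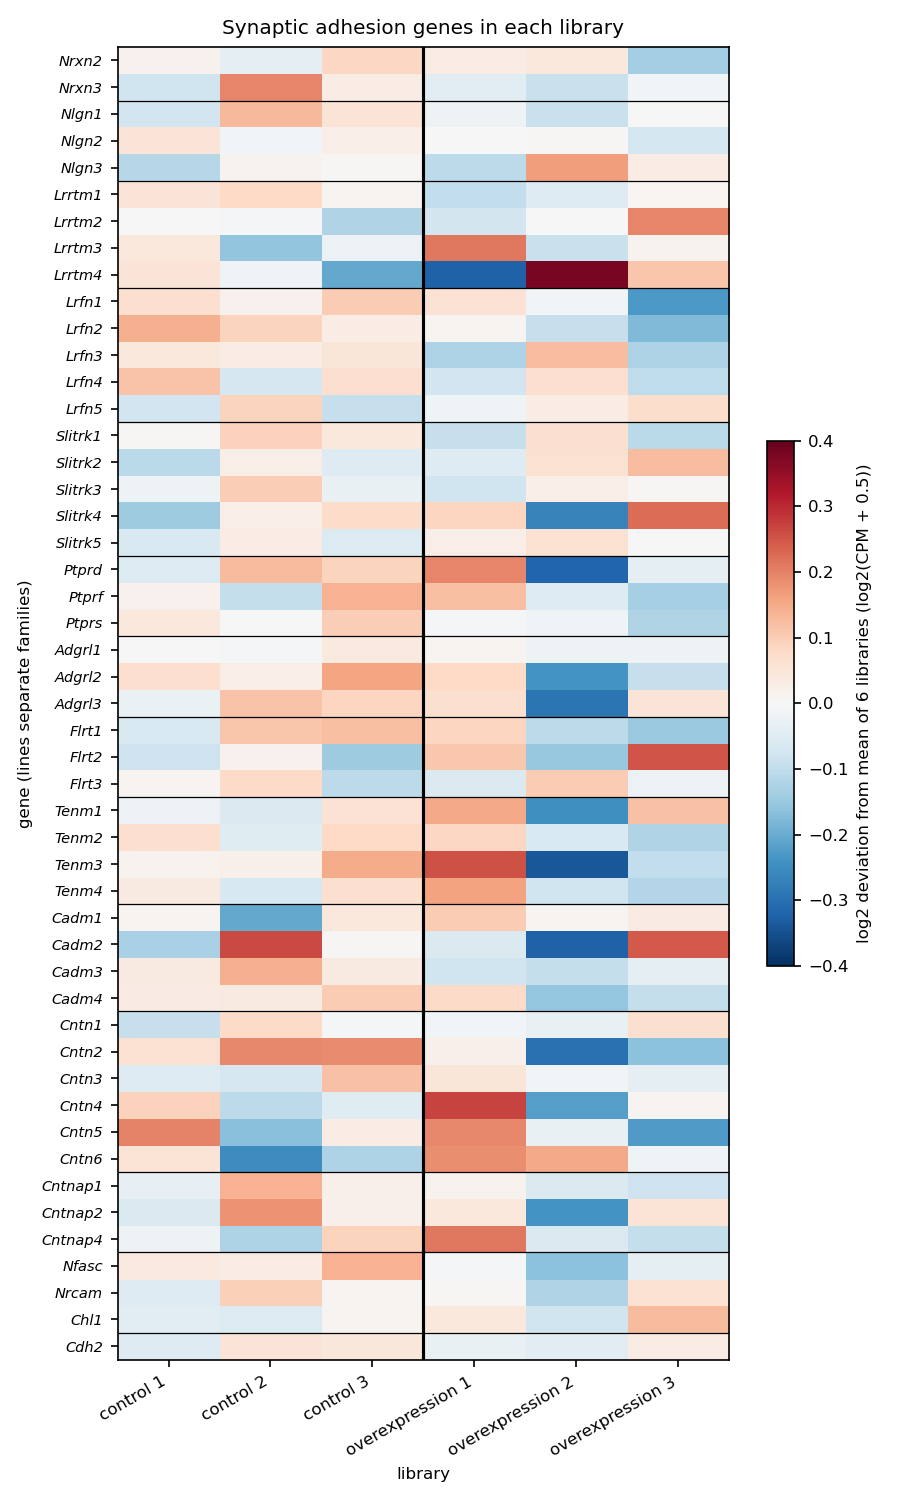
Log2 deviation of each of the 49 genes in each library from its mean over 6 libraries (colour; red higher, blue lower), with lines between families and control libraries on the left. Overexpression replicate 2 shows the most blue, with the lowest value for 19 genes, and Lrrtm4 stands out there as high.

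Genes that work with these adhesion molecules were examined as 3 lists. Of 20 secreted and extracellular partners, such as cerebellins and LGI proteins, 0 passed in either direction and 10 had a fold below 1, and the median of their log2 folds was 0.0078. The smallest p-values were those of Lgi3, at 93.8 ± 5.36 against 105 ± 8.67 CPM, and Nptxr, the neuronal pentraxin receptor, at 1024 ± 54.6 against 1120.3 ± 50.1 CPM (edgeR adjusted p = 0.487 and 0.492). Of 24 intracellular partners 0 passed and 16 had a fold below 1, with a median of -0.023. Lin7c, a scaffold that works with CASK below neurexins, was at 132 ± 16.6 against 109 ± 4.44 CPM, and Epb41l3, a protein 4.1 that binds SynCAMs and Caspr, at 166 ± 13.4 against 189 ± 7.97 CPM (edgeR adjusted p = 0.381 and 0.412).

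Of 22 other surface partners and regulators 0 passed, 14 had a fold below 1, and 5 had every overexpression library below every control library (22.7%, against 8.07% of all genes). These 5 were Unc5b, Clstn3, Clstn1, Lrrc4b and Lrrc4, and the median of the list was -0.065. The other partner lists had fewer separate groups. Of the 24 intracellular partners 3 were all below and 1 all above (7.07% of all genes were all above), and of the 20 secreted partners 0 were either. Unc5b, a netrin receptor that also binds FLRTs, had 23.0, 21.1 and 20.4 CPM in overexpression and 26.8, 30.6 and 29.5 CPM in control libraries. The groups were well apart, with a fold of 0.742 (95% interval 0.661 to 0.832) and an edgeR adjusted p of 0.0862, short of the threshold. Clstn3, a calsyntenin reported to bind neurexins, was at 363 ± 19.98 against 403 ± 6.15 CPM, 0.901-fold (95% interval 0.833 to 0.9746), with an edgeR adjusted p of 0.423.

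Markers shared by all neurons or by excitatory neurons also leaned below 1. All 6 pan-neuronal markers and all 6 excitatory neuron markers had a fold below 1, with medians of -0.074 and -0.10, and 0 of 12 passed. The smallest p-values were those of Nefm and Snap25 among the first, and Slc17a7 and Neurod6 among the second. Of 7 inhibitory neuron markers 4 had a fold below 1, with a median of -0.029, while the pair with the smallest p-values, Gad2 and Gad1, was above 1 (1.06 and 1.05). Summed pan-neuronal levels overlapped, at 4339.5 to 4506 CPM in overexpression and 4506 to 4946 CPM in control libraries. The median of the adhesion members, -0.041, lay between that of the inhibitory markers and those of the other neuronal lists, and these differences were not tested.

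Markers of other tissue that a dissection can carry along leaned above 1, and none passed. Choroid plexus markers (6 of 6 above 1, with the smallest p-values for Otx2 and Clic6) had a log2 median of 2.57, which came mainly from overexpression replicate 1 and was 1.01 without it. Their summed level of 46.5 and 67.9 CPM in overexpression replicates 2 and 3 overlapped the 23.4 to 47.8 CPM of control libraries. Meningeal fibroblast markers (6 of 6 above 1, with the smallest p-values for Col1a1 and Col1a2) had a median of 0.64, and thalamus markers (5 of 7 above 1, with the smallest for Zic1 and Synpo2) of 0.19. Summed meningeal markers were 96.8 to 124 CPM in overexpression and 69.4 to 111 CPM in control libraries. Summed thalamus markers were 113 to 143 and 111 to 119 CPM. By single markers, every overexpression library lay above every control library for 3 of 6 choroid plexus, 3 of 6 meningeal and 3 of 7 thalamus markers. That held for 7.07% of all genes. An unadjusted p under 0.05 by edgeR's test was reached by 2, 4 and 2 of these markers, all higher, against 9.24% of all genes in either direction. The part of these tissues in the values of the adhesion genes was not tested.

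Within the hippocampus itself, the dentate granule cell markers (8 of 8 above 1, with the smallest p-values for Pdzd2 and Trpc6) had a log2 median of 0.25, and of 0.45 without overexpression replicate 1. Of the astrocyte markers 4 of 6 had a fold below 1, with a median of -0.053. Gfap, the filament protein of astrocytes, had 338, 328 and 401 CPM in overexpression and 465, 525 and 533 CPM in control libraries. Its groups were well apart, with a fold of 0.700 (95% interval 0.6201 to 0.790) and an edgeR adjusted p of 0.0862, short of the threshold, while Aqp4, next by p, was at 0.933. Microglia markers were even, with 3 of 6 on each side and a median of 0.0021, and their smallest p-values were those of Tmem119 (1.10-fold) and C1qa (0.902-fold).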

How the data were processed

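Poly(A) RNA of the ventral hippocampus was sequenced from 3 NEGR1_overexpression and 3 NEGR1_control mice, with dUTP-marked strands per the labels' protocols. The authors deposited raw counts per Ensembl gene for all 6 libraries in 1 table. Per the submitters' processing notes, Trimmomatic 0.36, STAR 2.7.10 and featureCounts 2.0.3 were used, and mm10 and GRCm39 are both named as builds. Neither the annotation release nor the strand setting is stated there, so reads of overlapping antisense genes may be mixed. Of 56941 identifiers, 51948 were matched to a symbol.

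The main test was edgeR's quasi-likelihood test (edgeR 4.0.16 in R 4.3.3; robust fit, TMM factors, filterByExpr), group only, with Benjamini-Hochberg adjustment over 19354 genes and a threshold of 0.05. It was tested on simulated data first, with 50 changed genes of 1 CPM or more for each fold. Of these genes 36% passed at 1.25-fold, 68% at 1.5-fold and 90% at 2-fold, so small changes were often missed. The simulation also held 50 genes changed 4-fold, and the adjusted p of a gene depends on how many others change. With 9 genes past the threshold in the data, these rates need not hold there and may be too high. Folds carry 95% intervals from the same fit. Levels per kb used the union of GENCODE M21 exons, which may differ from the authors' gene models, and promoter windows came from RefSeq (GRCm38.p6), where 37 of the 49 members were found. Libraries of 30726110 to 38108394 counts gave a median standard error of 0.071 (log2) over the members. No 2 libraries agreed within sampling noise. There were 16 alternatives: other scaling (2), DESeq2 1.42.0, limma-voom (limma 3.58.1), other filters (2), the replicate number as a block, GC content and gene length correction, an adjusted p of 0.1, and each library left out in turn (6). The marker lists without overexpression replicate 1, and the share of all genes at an unadjusted p under 0.05 in each fit, were added after seeing the data.

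The 49 members, the 3 partner lists and the 10 marker lists were chosen with earlier results of these data known. Values in every library are given for members with an unadjusted p under 0.05 or groups that do not overlap, and otherwise for the member of a family with the smallest p. Partner and marker lists are represented by the 2 smallest p-values. Tenm3, Ptprd, Lrrtm4 and Cntn6 were named in more detail after their values were seen.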

Additional observations from a re-analysis of the deposited data

How the results depend on the processing

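The median log2 fold change of the 49 members kept its sign in all 16 alternatives, between -0.067 and -0.017. For the adjusted p of 0.1 that could not be otherwise, because it is the main fit with another threshold. The number of members past the threshold, 0 in the main analysis, was 1 with DESeq2, 1 with no filter on low counts and 0 to 1 when each library was left out in turn. That member was Cntn2 each time, and the library whose removal gave the call was overexpression replicate 1. Over all genes, the 9 past the threshold became 108 with DESeq2, 304 with no filter, 5 with a minimum of 1 CPM in 3 libraries, 19 at an adjusted p of 0.1, and 2 to 63 when each library was left out (63 without overexpression replicate 1, 5 without replicate 2, and 39, 2 and 3 without control replicates 1, 2 and 3). The cause was not tested. Without overexpression replicate 1 the median of the secreted partners was -0.028, against 0.0078 with it.

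With the replicate number as a block, 26 genes and 0 members passed. Libraries of the same number correlated at 0.017, 0.017 and 0.023 in their deviations from the group means. These values were small, although each library correlated best with its own number, a hint from the data and not from the design. Neither the labels nor these correlations settle whether libraries of the same number were paired.

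Of 800 values of single genes (the members and Negr1) under the alternatives, 43 had the opposite sign, in 20 members, and none of these passed the threshold. The largest of the 43 was 0.084 in size on the log2 scale. The 800 values include those at an adjusted p of 0.1, which equal the main ones and could not change sign. GC content correction gave log2 fold changes of -0.071 for Slitrk4, 0.013 for Adgrl1, -0.044 for Flrt3, -0.031 for Tenm1, -0.034 for Cntn1, -0.011 for Cntn4 and -0.014 for Chl1. Cntn3 was at 0.0085 with upper quartile factors, 5.1e-05 with DESeq2, 0.0041 with no filter and 0.0032 with the 1 CPM filter, and Tenm1 at -0.0035 with limma-voom. Leaving out each library in turn gave log2 fold changes on both sides of 0 for 18 members: Tenm1 -0.046 to 0.14, Cntn4 -0.084 to 0.17, Cntnap4 -0.062 to 0.10, Nlgn3 -0.0051 to 0.13, Lrrtm4 -0.038 to 0.31, Ptprd -0.23 to 0.026, Flrt3 -0.039 to 0.055, Tenm3 -0.28 to 0.027, Tenm4 -0.11 to 0.035, Cadm2 -0.24 to 0.047, Cntn3 -0.037 to 0.060, Nrcam -0.075 to 0.012, Nrxn2 -0.074 to 0.016, Slitrk4 -0.068 to 0.17, Ptprf -0.12 to 0.021, Cntn1 -0.026 to 0.055, Cntn5 -0.16 to 0.068, Slitrk3 -0.056 to 0.0090. At 3 libraries per group, the data do not settle the sign of a member whose interval covers 1.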
